A study of Homo sapiens with 9 samples.

Results

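The genes described here are 10 transcription factor genes of the myeloid lineages of blood: SPI1, CEBPA, CEBPB, CEBPD, CEBPE, IRF8, GFI1, GFI1B, IKZF1 and MITF. They were taken by symbol from a table of 21229 genes, in which all 10 were present, and all 10 were among the 16232 genes that passed the filter on low counts. RNA was sequenced from blood cells differentiated from H1, an established human embryonic stem cell line, in 3 groups of 3 libraries. One control group was CD38+ and the other CD90+ (CD90 is encoded by THY1), and the third group was CD90+ with the genotype GATA2 overexpression. All groups shared the parent line, and the sources used here do not give the vector or promoter behind the added GATA2, the day of differentiation or the nature of the control. The labels do not tell if replicate libraries stem from separate cultures, so p-values measure the spread between these libraries, which may be technical. GATA2 overexpression and differences between cultures of the groups cannot be told apart.

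Myeloid cells arise from multipotent progenitors under a small set of DNA-binding proteins that act in combination. PU.1, encoded by SPI1, opens myeloid enhancers and is opposed by GATA factors of the erythroid and megakaryocyte lineages. C/EBP proteins then drive granulocyte and monocyte genes, IRF8 favours monocytes and dendritic cells, GFI1 and GFI1B repress genes of competing lineages, IKAROS (IKZF1) is best known in lymphoid cells, and MITF acts in mast cells and pigment cells.

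Levels are given as CPM (counts per 1000000 counts on tested genes, with library sizes scaled by TMM factors). A gene was called different at a Benjamini-Hochberg adjusted p under 0.05 in edgeR's quasi-likelihood test across all tested genes, and n = 3 for each group. Library totals ranged from 37500192 to 47261093 counts. GATA2 averaged 376 ± 12.8 CPM (SD) with overexpression against 87.3 ± 1.93 CPM in the CD90+ controls, and was highest in the CD38+ controls at 569 ± 16.3 CPM. THY1 averaged 4.43 ± 0.632 CPM in the CD90+ controls and was at 0 counts in each CD38+ library. CD38 averaged 122 ± 2.40 CPM in the CD38+ group and 4.37 ± 0.382 CPM in the CD90+ controls. Summed mesenchymal markers ranged from 31.6 to 33.3 CPM in CD38+ control, 1120 to 1141 CPM in CD90+ control and 275 to 294 CPM in GATA2 overexpression libraries. Epithelial and endoderm markers summed to 358.5 to 374 CPM, 1119 to 1128 CPM and 712 to 719 CPM in the same groups. The part of such other cells in the results below was not tested, and in bulk RNA fewer cells of a type and less RNA per cell cannot be told apart.

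Between CD90+ and CD38+ control cells, 9 of the 10 factors were called, 7 lower and 2 higher in CD90+ cells. SPI1, CEBPA, CEBPB, CEBPE, GFI1, IKZF1 and MITF were lower, IRF8 and GFI1B were higher, and CEBPD was not called. Over all tested genes 80.4% were called in this comparison (41.1% higher and 39.3% lower), so 9 of 10 is a share near the background. The libraries of the 2 groups did not overlap for 9 of the 10, against 82.8% of all tested genes. The median log2 fold change of the 10 was -0.75, beside 0.03 over all tested genes, and 4 of the 10 were called with a difference of at least 2-fold (36.2% of all tested genes).

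Between GATA2-overexpressing and control CD90+ cells, 8 of the 10 were called, against 77.6% of all tested genes. CEBPA, CEBPE, GFI1 and GFI1B rose, CEBPB, CEBPD, IRF8 and IKZF1 fell, and SPI1 and MITF were not called. The 4 rises stand beside 38.0% of all tested genes called higher, and the 4 falls beside 39.6% called lower. The median was 0.03 (-0.04 over all tested genes), and 5 of the 10 were called at 2-fold or more, against 29.4% of all tested genes. Libraries did not overlap for 8 of the 10, against 80.4% of all tested genes.

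Between GATA2-overexpressing CD90+ and CD38+ control cells, 9 of the 10 were called, 1 higher and 8 lower, against 83.2% of all tested genes (43.3% higher and 39.9% lower). GFI1B was the gene that was higher, and GFI1 was not called. Libraries did not overlap for 9 of the 10, against 83.0% of all tested genes. The 3 comparisons share libraries, so their values are set side by side here and no agreement between them is drawn. Scaling moved the differences, and small ones could change sign or call. Over 15 alternatives, log2 fold changes in CD90+ against CD38+ control cells ran from -0.72 to -0.30 for SPI1 and -0.93 to -0.49 for CEBPA. They ran from -0.84 to -0.39 for CEBPB and -0.998 to -0.57 for IKZF1. On the higher side they ran from 1.40 to 1.83 for IRF8 and 1.17 to 1.60 for GFI1B. These genes kept their sign and call there, but the size of the fold depends on the scaling. With scaling by library size alone the median of all genes moved by 0.41 in CD90+ against CD38+ control cells and by -0.25 with GATA2 overexpression against control CD90+ cells. The share of calls on the higher side then went from 51.2% to 71.2% and from 49.0% to 35.5%, and upper-quartile factors gave 64.3% and 42.8%.

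**Figure D1:**
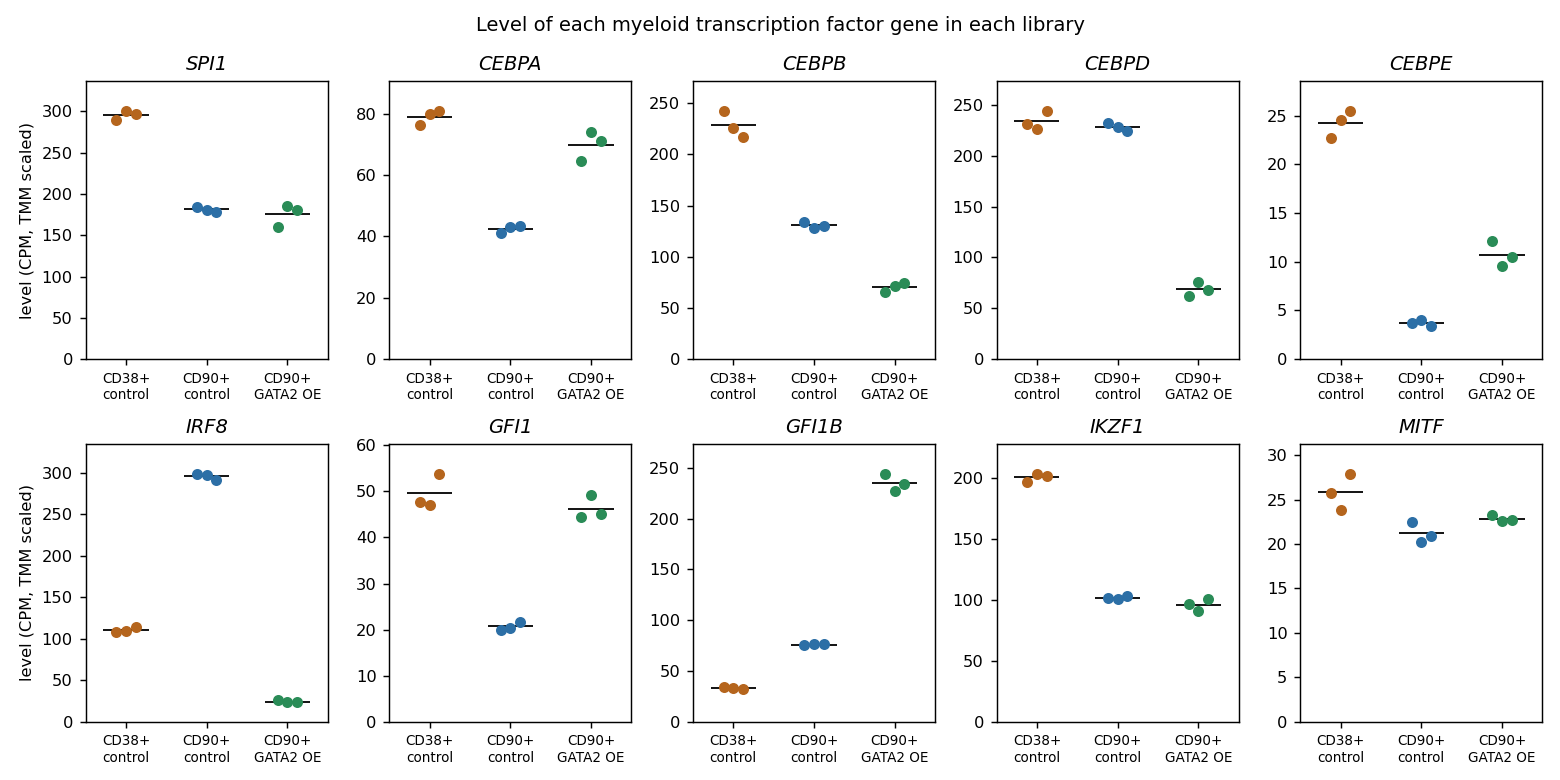
Level of each gene in each library, in CPM on a linear axis from 0, with 1 point per library and a bar at the group mean (3 libraries per group). IRF8 is highest in CD90+ control cells (291 to 299 CPM) and lowest with GATA2 overexpression (23.3 to 26.1 CPM), whereas GFI1B is highest with GATA2 overexpression (227 to 244 CPM).

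**Figure D2:**
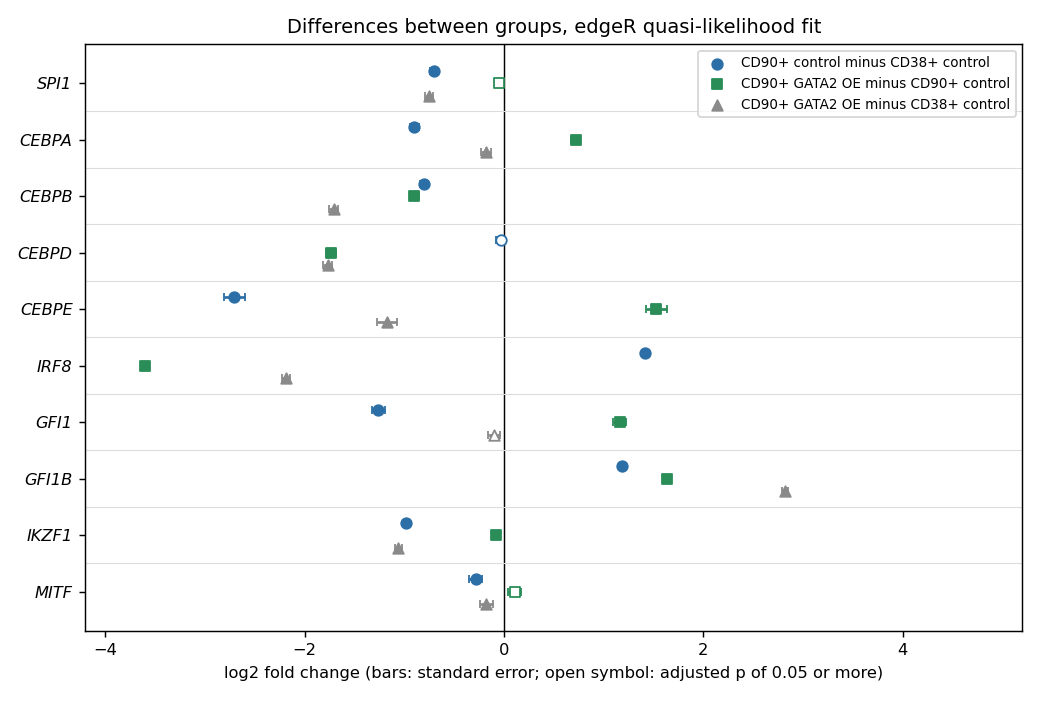
Log2 fold change of each gene in the 3 comparisons, with its standard error, from the fit over all 9 libraries. Open symbols mark CEBPD in CD90+ against CD38+ control cells, SPI1 and MITF with GATA2 overexpression against control CD90+ cells, and GFI1 in GATA2 overexpression against CD38+ control cells, which were not called.

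Levels of different genes were compared per kilobase of exon (CPM per kb, on the union of GENCODE exons). In CD38+ control cells SPI1 led at 143 ± 2.82 CPM per kb, followed by CEBPB at 117 ± 6.62 and CEBPD at 107 ± 4.28, whose libraries overlapped each other. CEBPA (30.1 ± 0.954), IRF8 (21.4 ± 0.528), IKZF1 (18.3 ± 0.329), CEBPE (15.6 ± 0.930) and GFI1 (15.01 ± 1.14) came next in CPM per kb, with CEBPE and GFI1 overlapping. GFI1B (5.46 ± 0.139 CPM per kb) and MITF (3.599 ± 0.285 CPM per kb) were lowest there.

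In CD90+ control cells the leading gene was CEBPD at 105 ± 1.67 CPM per kb, ahead of SPI1 at 87.6 ± 1.39, CEBPB at 66.9 ± 1.61 and IRF8 at 57.2 ± 0.806. No neighbours in the order overlapped in that group, and CEBPE was lowest at 2.39 ± 0.213 CPM per kb. With GATA2 overexpression SPI1 led again at 84.8 ± 6.57 CPM per kb. GFI1B came next at 38.5 ± 1.43, where it overlapped CEBPB at 35.8 ± 2.25, which in turn overlapped CEBPD at 31.5 ± 3.02 CPM per kb. IRF8 stood in place 9 of 10 at 4.71 ± 0.299 CPM per kb. With the longest coding transcript as the length, IRF8 went from place 5 to 4 in CD38+ control cells, SPI1 and not CEBPD led in CD90+ control cells, and CEBPE and IRF8 changed places with GATA2 overexpression. CEBPA went from place 4 to 6 in CD38+ control cells. In CD90+ control cells IRF8 went from 4 to 3 and GFI1B from 6 to 5, past CEBPA. With GATA2 overexpression GFI1B kept place 2 but was at 95.99 ± 3.56 CPM per kb by that length, against 35.8 for CEBPB. Other neighbours that changed places were IKZF1 (6 to 5) and CEBPE and GFI1 (7 and 8) in CD38+ control cells.

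SPI1 (ENSG00000066336.11, chromosome 11, 47354860 to 47378576, minus strand, GRCh38) encodes PU.1, an ETS-domain protein needed for macrophages, granulocytes and B cells. Its 3 CD38+ libraries were at 289, 301 and 297 CPM, the CD90+ control libraries at 184, 181 and 179 CPM, and the GATA2 overexpression libraries at 160, 186 and 180 CPM. Every CD38+ library was above all the others, and both kinds of CD90+ library overlapped. SPI1 was 1.63-fold lower in CD90+ than in CD38+ control cells (log2 fold change -0.71, SE 0.0400, adjusted p = 3.8e-11). With GATA2 overexpression it was at 175 ± 13.6 against 181 ± 2.87 CPM (log2 difference -0.05, SE 0.0406, adjusted p = 0.295). That difference was called lower under 5 of 15 alternatives, with RLE factors (adjusted p = 0.0372), library size only (4.9e-06), upper-quartile factors (0.00177), the filter at 1 CPM (0.0043) and DESeq2 (0.0284), and its sign turned without GATA2 overexpression replicate 1 (0.02, adjusted p = 0.526). Its adjusted p ran from 4.9e-06 to 0.526 over the 15.

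PU.1 and GATA1 bind each other and oppose each other's targets, so their transcripts were compared within each library, per kb. The ratio of SPI1 to GATA1 was 1.13 to 1.18 in CD38+ control, 1.86 to 2.03 in CD90+ control and 0.450 to 0.515 in GATA2 overexpression libraries, and no groups overlapped. The ratio of SPI1 to GATA2 was 1.119 ± 0.0166 in CD38+ control cells, 4.47 ± 0.123 in CD90+ control cells and 1.004 ± 0.0464 with GATA2 overexpression. The last is a ratio to the gene that was itself overexpressed. GATA1 averaged 66.6 ± 3.27 CPM in the CD90+ controls against 264 ± 7.32 CPM with GATA2 overexpression, so the denominator moved between these groups while SPI1 was not called. Exact permutation tests of 3 libraries against 3 cannot go below a two-sided p of 0.1, so the ratios are given as values.

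IKZF1 (ENSG00000185811.18, chromosome 7, 50304068 to 50405101) encodes the zinc finger protein IKAROS. It stood at 196, 203 and 201 CPM in the CD38+ libraries, 101, 101 and 103 CPM in the CD90+ control libraries and 96.2, 91.0 and 101 CPM with GATA2 overexpression. The CD38+ libraries were about level with each other and far above the rest, and the other 2 groups overlapped. IKZF1 was 1.97-fold lower in CD90+ than in CD38+ control cells (log2 fold change -0.98, SE 0.0328, adjusted p = 2.47e-14). With GATA2 overexpression it was called 1.06-fold lower (log2 fold change -0.08, SE 0.0337, adjusted p = 0.0417). This call ended on leaving out any 1 of the CD90+ control libraries (adjusted p = 0.0725, 0.0693 and 0.124 without replicates 1, 2 and 3) or GATA2 overexpression replicate 1 (0.0822) or 2 (0.317), and its adjusted p ran from 1.34e-07 to 0.317 over 15 alternatives. Summed lymphoid markers were at 356 to 365 CPM in CD38+ control, 170 to 176 CPM in CD90+ control and 151 to 154 CPM in GATA2 overexpression libraries. The sum was carried mainly by NKG7, a cytotoxic granule gene (190.4 ± 1.90 CPM in CD38+ and 63.2 ± 3.38 CPM in CD90+ controls), and CD3D, a T cell receptor subunit gene (98.1 ± 4.90 and 5.37 ± 0.0754 CPM). By count the list did not follow its sum, since 5 of 16 tested were higher in CD90+ than in CD38+ controls, 4 lower and 7 not called, with a median of 0.45 on the log2 scale. IL7R and GATA3 were 1.74-fold and 1.58-fold higher (adjusted p = 3.17e-08 and 4.31e-05). With GATA2 overexpression 3 rose and 9 fell (median -0.74). PAX5 and RAG2 were at 0 counts in the CD38+ group, and the part of lymphoid cells in the IKZF1 levels was not tested.

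The C/EBP genes encode bZIP proteins that bind the same DNA element as dimers. C/EBP alpha is needed to enter the granulocyte lineage, beta and delta respond to cytokines and inflammation, and epsilon acts late in granulocytes. The summed level of CEBPA, CEBPB, CEBPD and CEBPE was 270 ± 4.18 CPM per kb in CD38+ control cells, 190 ± 2.54 in CD90+ control cells and 101 ± 5.72 with GATA2 overexpression, and it was not tested. The family relatives CEBPG and DDIT3 are outside this sum and the shares below. In the same order of groups, CEBPG averaged 198, 93.3 and 60.2 CPM and DDIT3 364, 239 and 144 CPM.

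CEBPA (ENSG00000245848.2, chromosome 19, 33299934 to 33302564, minus strand) stood at 76.3, 80.0 and 81.02 CPM in CD38+ control libraries. It stood at 41.1, 43.0 and 43.3 CPM in CD90+ control libraries and 64.5, 74.0 and 71.1 CPM in GATA2 overexpression libraries. No groups overlapped, and the GATA2 overexpression libraries lay between the control groups. CEBPA was 1.86-fold lower in CD90+ than in CD38+ control cells (log2 fold change -0.90, SE 0.0478, adjusted p = 1.59e-11) and rose 1.65-fold with GATA2 overexpression (0.72, SE 0.0481, adjusted p = 4.12e-10). Against CD38+ control cells it was 1.13-fold lower with GATA2 overexpression (adjusted p = 0.0022), a call that ended with library size only (0.741) and with upper-quartile factors (0.562). An antisense gene, AC008738.3, shares 25.0% of its exonic bases and was not analysed here.

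CEBPB (ENSG00000172216.5, chromosome 20, 50190734 to 50192689) went down at each step. It was at 243, 226 and 217 CPM in CD38+ control, 134, 128 and 130 CPM in CD90+ control and 65.2, 71.1 and 73.9 CPM in GATA2 overexpression libraries. The groups did not overlap. The differences were 1.75-fold lower in CD90+ than in CD38+ control cells (adjusted p = 1.25e-11) and a further 1.87-fold lower with GATA2 overexpression than in control CD90+ cells (log2 fold change -0.90, SE 0.0447, adjusted p = 6.89e-12). CEBPB-AS1, which shares 11.8% of its exonic bases on the opposite strand, averaged 0.620 CPM in the CD90+ controls, 0.573 CPM with GATA2 overexpression and 0 in CD38+ control cells.

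CEBPD (ENSG00000221869.4, chromosome 8, 47736909 to 47739086, minus strand) was at 231, 226 and 244 CPM in CD38+ control and 232, 228 and 225 CPM in CD90+ control libraries, which overlapped. With GATA2 overexpression it was at 62.3, 75.4 and 67.9 CPM, below every control library. It fell 3.33-fold from control CD90+ cells (log2 fold change -1.74, SE 0.0487, adjusted p = 3.41e-15). Its difference between the control groups was not called (log2 fold change -0.04, SE 0.0449, adjusted p = 0.483) and turned to a call on the higher side with library size only (0.37, adjusted p = 7.32e-07) and with upper-quartile factors (0.23, adjusted p = 0.000178), so its direction there depends on the scaling.

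CEBPE (ENSG00000092067.5, chromosome 14, 23117304 to 23119616, minus strand) had the widest difference of the 4 between the control groups. It was at 22.7, 24.6 and 25.5 CPM in CD38+ control, 3.71, 4.05 and 3.38 CPM in CD90+ control and 12.2, 9.59 and 10.4 CPM in GATA2 overexpression libraries. The groups did not overlap. CEBPE was 6.52-fold lower in CD90+ than in CD38+ control cells (log2 fold change -2.70, SE 0.107, adjusted p = 2.7e-13), and 13.1% of tested genes changed by more. It rose 2.89-fold with GATA2 overexpression (1.53, SE 0.108, adjusted p = 9.1e-10) and was still 2.26-fold below CD38+ control cells.

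The make-up of the 4 C/EBP transcripts per kb differed between all groups by more than the spread of libraries for CEBPA and CEBPD. CEBPA held 10.6% to 11.5% of their sum in CD38+ control, 8.08% to 8.72% in CD90+ control and 25.998% to 26.7% in GATA2 overexpression libraries. Its own level was lower with GATA2 overexpression than in CD38+ control cells (69.9 ± 4.85 against 79.1 ± 2.51 CPM), so its larger share there goes with lower levels of the others. CEBPD held 39.8 ± 1.47% in CD38+ control cells, 55.1 ± 0.320% in CD90+ control cells and 31.2 ± 1.48% with GATA2 overexpression. The share of CEBPB was 35.2 ± 0.491% in CD90+ control cells and 35.6 ± 1.15% with GATA2 overexpression, which overlapped. The ratio of CEBPA to CEBPB was 0.258 ± 0.0223 in CD38+ control, 0.241 ± 0.0120 in CD90+ control and 0.742 ± 0.0297 with GATA2 overexpression, where the control groups overlapped and the third lay apart.

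**Figure D3:**
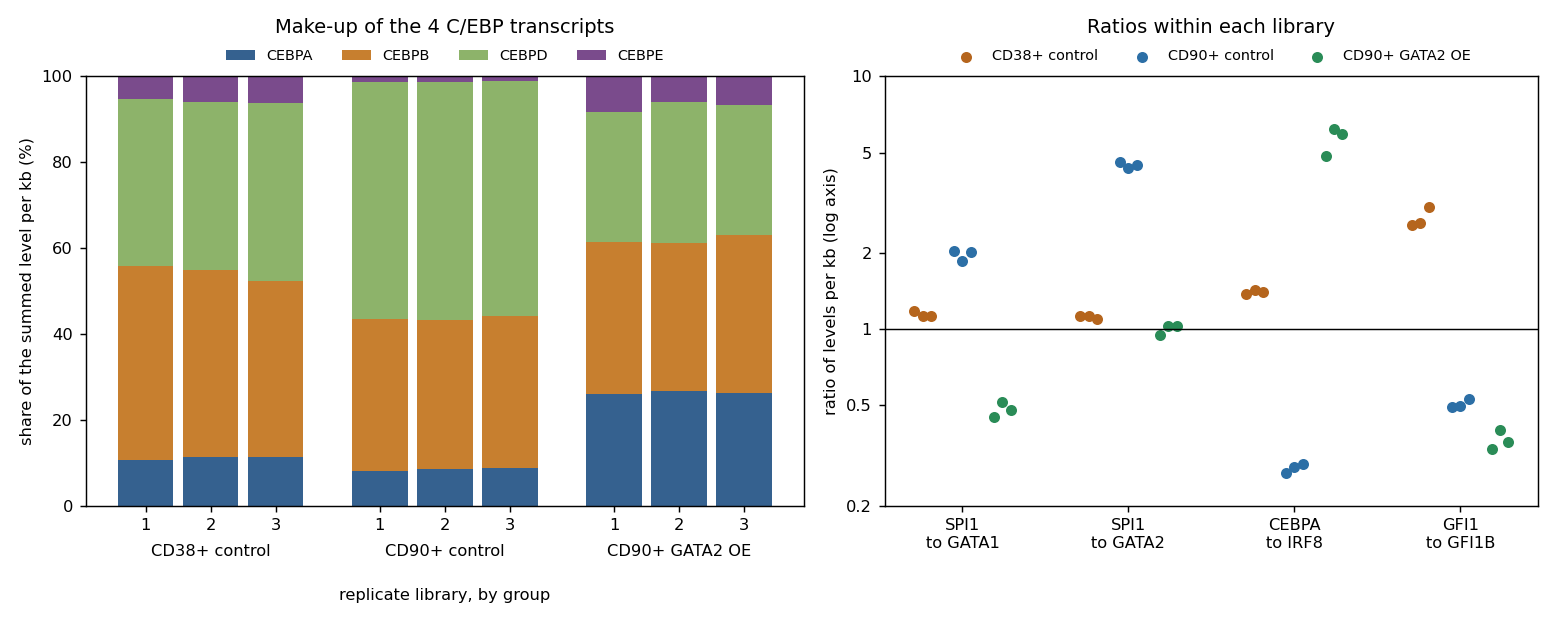
Left, the share of CEBPA, CEBPB, CEBPD and CEBPE in their summed level per kb, 1 bar per library, from 0 to 100%. Right, ratios of levels per kb within each library on a log axis, with a line at 1. The share of CEBPA is 25.998% to 26.7% in GATA2 overexpression libraries against 8.08% to 11.5% in the 6 control libraries, and the ratio of CEBPA to IRF8 is lowest in CD90+ control cells.

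IRF8 (ENSG00000140968.10, chromosome 16, 85898803 to 85922609) encodes an interferon regulatory factor that partners PU.1 in monocytes, dendritic cells and B cells and restrains C/EBP alpha. It stood at 108, 110 and 114 CPM in CD38+ control libraries, 299, 297 and 291 CPM in CD90+ control libraries and 26.1, 23.3 and 23.5 CPM with GATA2 overexpression. The CD90+ control libraries were all above the rest and the GATA2 overexpression libraries all below. It was 2.67-fold higher in CD90+ than in CD38+ control cells (log2 fold change 1.42, SE 0.0326, adjusted p = 1.61e-16) and fell 12.2-fold with GATA2 overexpression (-3.60, SE 0.0382, adjusted p = 2.42e-20). Of all tested genes, 2.86% changed by more in the latter comparison. With GATA2 overexpression IRF8 was also 4.54-fold below CD38+ control cells (adjusted p = 3.15e-18).

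Within libraries, the ratio of CEBPA to IRF8 per kb was 0.270 to 0.292 in CD90+ control and 4.85 to 6.22 in GATA2 overexpression libraries. In CD38+ control libraries it was 1.38 to 1.43. With the longest coding transcript as the length the group means were 0.165, 3.33 and 0.824, so which gene led in CD38+ control cells depends on the length used, and the order of the groups did not. IRF4, the closest relative of IRF8, was 3.44-fold lower in CD90+ than in CD38+ control cells (10.9 ± 0.202 against 37.5 ± 1.61 CPM, adjusted p = 5.6e-13), where IRF8 was higher. It fell 19.2-fold with GATA2 overexpression, to 0.563 ± 0.105 CPM (adjusted p = 2.71e-15).

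GFI1 and GFI1B encode zinc finger repressors that share a SNAG domain, which recruits the demethylase KDM1A. GFI1 is used in granulocytes and lymphocytes, and GFI1B in red cell and megakaryocyte precursors. The RefSeq promoter table (GRCh38.p14) had entries for 8 of the 10 genes, in 17 windows that run from 250 bases before to 50 after a start, and SPI1 and CEBPD had none. A window of each paralog is printed because the 2 genes went opposite ways between the control groups, with a window of CEBPE, which differed most among the C/EBP genes between them. Of the 2 GFI1B windows, the one that holds the GATA letters was printed, so that match was fixed by the choice. They lie at chr1:92486876-92487175 (minus strand, the outermost GFI1 start), chr9:132978444-132978743 (plus strand, the downstream of 2 GFI1B starts) and chr14:23119206-23119505 (minus strand). Capitals mark TGATAA or AGATAA (letters of the GATA motif), AAATCA (GFI1) and GAGGAA (PU.1), searched on both strands, and no matches overlap.
GFI1: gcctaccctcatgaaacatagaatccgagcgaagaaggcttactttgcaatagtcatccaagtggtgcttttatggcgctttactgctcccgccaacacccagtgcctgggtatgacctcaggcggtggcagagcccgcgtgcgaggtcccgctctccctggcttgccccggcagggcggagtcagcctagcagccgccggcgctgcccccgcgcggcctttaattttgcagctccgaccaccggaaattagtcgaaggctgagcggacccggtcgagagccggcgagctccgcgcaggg
GFI1B: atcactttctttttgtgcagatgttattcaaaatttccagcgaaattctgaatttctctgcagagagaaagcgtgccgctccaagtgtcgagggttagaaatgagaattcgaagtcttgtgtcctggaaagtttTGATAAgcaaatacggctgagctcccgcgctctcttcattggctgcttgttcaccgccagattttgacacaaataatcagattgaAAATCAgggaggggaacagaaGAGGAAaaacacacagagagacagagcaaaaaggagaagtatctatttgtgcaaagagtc
CEBPE: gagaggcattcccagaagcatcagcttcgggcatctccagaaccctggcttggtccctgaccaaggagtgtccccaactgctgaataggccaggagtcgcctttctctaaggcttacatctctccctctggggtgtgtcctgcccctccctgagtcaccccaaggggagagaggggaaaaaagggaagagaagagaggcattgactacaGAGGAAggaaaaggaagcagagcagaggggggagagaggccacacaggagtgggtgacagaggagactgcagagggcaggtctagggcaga

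The printed GFI1B window held the 3 motifs at 116, 31 and 10 bases before its start. The other GFI1B window held the GFI1 and PU.1 letters at 170 and 105 bases before its start, but not the GATA letters. The CEBPE window held GAGGAA at 41 bases before its start, and the printed GFI1 window held none of these letters. Another GFI1 window held GAGGAA at 30 bases before its start. Among all 35116 windows of this length, the GATA letters occurred in 16.3%, the GFI1 letters in 13.2% and the PU.1 letters in 27.9%. Of the 17 windows of the factors, 3, 3 and 6 held them. A match is a description of letters and no evidence of binding.

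GFI1 (ENSG00000162676.11, chromosome 1, 92474762 to 92486876, minus strand) was at 47.8, 47.0 and 53.9 CPM in CD38+ control, 19.99, 20.4 and 21.7 CPM in CD90+ control and 44.5, 49.2 and 45.0 CPM in GATA2 overexpression libraries. CD90+ control libraries were below all others, and the other 2 groups overlapped. GFI1 was 2.39-fold lower in CD90+ than in CD38+ control cells (log2 fold change -1.26, SE 0.0611, adjusted p = 4.42e-12) and rose 2.23-fold with GATA2 overexpression (1.16, SE 0.0612, adjusted p = 1.67e-11). Its difference between GATA2 overexpression and CD38+ control cells was -0.10 on the log2 scale (SE 0.0591, adjusted p = 0.124), and the sign turned with library size only (0.06) and upper-quartile factors (0.05).

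GFI1B (ENSG00000165702.14, chromosome 9, 132944000 to 132991687) was at 34.3, 33.1 and 32.6 CPM in CD38+ control, 75.2, 76.2 and 76.1 CPM in CD90+ control and 244, 227 and 234 CPM in GATA2 overexpression libraries. The 3 groups did not overlap. It was 2.27-fold higher in CD90+ than in CD38+ control cells (log2 fold change 1.19, SE 0.0352, adjusted p = 5.11e-15) and rose 3.10-fold with GATA2 overexpression (1.63, SE 0.0315, adjusted p = 3.05e-17). It was the one gene of the 10 called higher in GATA2 overexpression than in CD38+ control cells (7.05-fold, adjusted p = 2.94e-20). Summed megakaryocyte markers stood in the same order as GFI1B, at 529.5 to 536 CPM in CD38+ control, 2460 to 2493 CPM in CD90+ control and 3869 to 3965 CPM in GATA2 overexpression libraries. In CD90+ against CD38+ controls 6 of 7 were higher and 0 lower, and with GATA2 overexpression 5 rose and 1 fell. Summed erythroid markers were at 188 to 195 CPM, 716 to 736 CPM and 314 to 380 CPM in these groups, with AHSP at 0 counts in the first, and 8 of 8 were higher in CD90+ than in CD38+ controls, while 5 fell and 0 rose with GATA2 overexpression. The part of megakaryocyte and erythroid cells in the GFI1B levels was not tested. TSC1 overlaps 5.72% of its exonic bases on the opposite strand, and TSC1 was lower with GATA2 overexpression (22.4 against 38.2 CPM, log2 fold change -0.77, adjusted p = 1.02e-09). The ratio of GFI1 to GFI1B per kb was 2.58 to 3.05 in CD38+ control, 0.492 to 0.528 in CD90+ control and 0.336 to 0.401 in GATA2 overexpression libraries, with no overlap between groups. With the longest coding transcript as the length the group means were 1.28, 0.234 and 0.169.

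MITF (ENSG00000187098.15, chromosome 3, 69739435 to 69968337) encodes a bHLH zipper protein with several promoters, which counts per gene do not separate. It had the smallest spread between groups, at 25.7, 23.8 and 27.9 CPM in CD38+ control, 22.5, 20.3 and 20.9 CPM in CD90+ control and 23.3, 22.6 and 22.7 CPM in GATA2 overexpression libraries. The CD38+ libraries were highest, by little. It was 1.22-fold lower in CD90+ than in CD38+ control cells (log2 fold change -0.28, SE 0.0657, adjusted p = 0.000807), but the sign turned with library size only (0.13, adjusted p = 0.0859) and the call ended with upper-quartile factors (0.766). With GATA2 overexpression it was not called (log2 difference 0.11, SE 0.0662, adjusted p = 0.153) although the libraries did not overlap, and the sign turned with library size only (-0.14). Against CD38+ control cells it was called 1.13-fold lower (adjusted p = 0.0207), a call that ended without CD38+ control replicate 3 (0.128) or GATA2 overexpression replicate 2 (0.0606), with library size only (0.823) and with upper-quartile factors (0.685).

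Mast cell and basophil genes include known targets of MITF and GATA2. Of 16 tested, 11 were lower and 2 higher in CD90+ than in CD38+ control cells, with a median log2 fold change of -4.38 beside 0.03 over all tested genes. Counts for this and the other lists stand beside 39.3% lower and 41.1% higher over all tested genes in that comparison. With GATA2 overexpression against control CD90+ cells these shares were 39.6% and 38.0%. The tryptase genes TPSAB1 and TPSB2 were 82.5-fold and 62.9-fold lower (adjusted p = 1.19e-16 and 2.32e-19). FCER1A, an IgE receptor gene, and KIT, the stem cell factor receptor gene, were 2.41-fold and 1.19-fold higher (adjusted p = 4.72e-05 and 0.000102). With GATA2 overexpression 10 rose and 4 fell (median 0.53, beside -0.04), with the carboxypeptidase gene CPA3 up 4.98-fold, from 5.02 ± 0.340 to 25.0 ± 2.36 CPM (adjusted p = 1.9e-14), and FCER1A up 8.06-fold (adjusted p = 1e-10). HPGDS, a prostaglandin D synthase gene, and IL1RL1, the IL-33 receptor gene, fell 2.95-fold and 2.38-fold (adjusted p = 4.92e-10 and 3.93e-09). Summed over the list, levels were 5710 to 6006 CPM in CD38+ control, 208 to 237 CPM in CD90+ control and 488 to 554 CPM in GATA2 overexpression libraries. CLC (3681 ± 146 CPM) and HDC (1300 ± 18.7 CPM) made up most of the sum in CD38+ control cells. Pigment cell genes were low, at a sum of 2.75 to 3.18 CPM in CD38+ control and 26.9 to 28.8 CPM in CD90+ control libraries and of 9.87 to 10.6 CPM with GATA2 overexpression, mostly PMEL (23.5 ± 0.628 CPM in the CD90+ controls). Of 4 tested, 4 were higher in CD90+ than in CD38+ controls, and 3 fell and 0 rose with GATA2 overexpression.

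Granulocyte genes, some of which C/EBP alpha, C/EBP epsilon and GFI1 are known to control, split. In CD90+ against CD38+ control cells 13 of 21 were lower and 8 higher, with a median log2 fold change of -1.17. CAMP, a secondary granule gene and known C/EBP epsilon target, was at 21.1 ± 0.762 CPM in CD38+ and 0.337 ± 0.0928 CPM in CD90+ control cells (62.6-fold lower, adjusted p = 5.77e-15), and at 0.160 ± 0.0559 CPM with GATA2 overexpression. MPO, the myeloperoxidase of primary granules, was 1.32-fold higher, at 970 ± 9.72 against 737 ± 30.5 CPM (adjusted p = 1.68e-08). With GATA2 overexpression 8 of 21 rose and 10 fell (median 0.07). MPO rose 1.80-fold, to 1746 ± 92.7 CPM (adjusted p = 5.98e-13), a larger step in CPM than that of the list's sum. MS4A3, a gene of granulocyte and monocyte progenitors, rose 7.85-fold from 24.3 ± 1.46 to 191 ± 8.01 CPM (adjusted p = 1.16e-18), and PRTN3, a primary granule protease gene, rose 12.1-fold to 64.1 ± 21.1 CPM, with libraries spread from 41.4 to 83.3 CPM (adjusted p = 1.05e-07). MMP9, a gelatinase of late granules, fell 28.1-fold, from 114 ± 2.83 to 4.07 ± 0.0790 CPM (adjusted p = 4.22e-20). Summed over the list, levels were 5892 to 6124 CPM in CD38+ control, 1885 to 1912 CPM in CD90+ control and 2375 to 2627 CPM in GATA2 overexpression libraries, with PGLYRP1 and CEACAM8 at 0 counts in the first group and MMP8 in the last. S100A9 (2645 ± 37.8 CPM) and S100A8 (1765 ± 118 CPM) made up most of the sum in CD38+ control cells, and MPO in the other groups. The part of granulocytes in the levels of CEBPE and GFI1 was not tested.

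Monocyte and macrophage genes are cell type markers here, some of them known targets of PU.1 or IRF8. They were lower in 15 and higher in 4 of 22 cases in CD90+ than in CD38+ control cells (median -0.76). CSF1R, the receptor gene for M-CSF and a PU.1 target, and MRC1, the mannose receptor gene, were higher with IRF8. CSF1R was at 1068 ± 14.4 against 416 ± 12.9 CPM (2.57-fold, adjusted p = 1.56e-16) and MRC1 at 113 ± 2.28 against 27.8 ± 1.23 CPM (4.05-fold, adjusted p = 7.87e-14). CD14, which encodes a lipopolysaccharide co-receptor, was lower, with 29.7 ± 1.59 against 344 ± 11.3 CPM (11.6-fold, adjusted p = 3.31e-19). With GATA2 overexpression 16 of 22 fell and 4 rose (median -2.32, beside -0.04 over all tested genes), and MRC1 fell 42.5-fold and CD14 36.8-fold (adjusted p = 1.74e-17 and 1.02e-16). CSF1R fell 4.69-fold, to 228 ± 10.3 CPM (adjusted p = 9.88e-19). NCF4, an oxidase subunit gene, and CTSS, a lysosomal protease gene, rose 1.98-fold and 1.54-fold. Summed over the list, levels were 7828 to 7914 CPM in CD38+ control, 3507 to 3544 CPM in CD90+ control and 2421 to 2430 CPM in GATA2 overexpression libraries, with LILRB4 at 0 counts in the last group. The part of macrophages in the IRF8 levels was not tested.

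Other macrophage and dendritic cell factors were lower in 10 and higher in 7 of 18 cases in CD90+ than in CD38+ control cells (median -0.16), and with GATA2 overexpression 14 of 18 fell and 4 rose (median -1.86). The lipid-sensing receptor gene PPARG fell 9.44-fold with GATA2 overexpression (adjusted p = 2.11e-15). Erythroid and megakaryocyte factors, a list that holds GATA2 itself, rose in 12 of 14 cases and fell in 0 (median 1.18), with 2 not called. GATA1 rose 3.96-fold (adjusted p = 3.04e-17). In CD90+ against CD38+ control cells 7 of these 14 were higher and 6 lower, with ERG 8.43-fold higher and GATA1 2.81-fold lower.

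Relatives of the 10 factors in the same families were lower in 12 and higher in 5 of 17 cases in CD90+ than in CD38+ control cells (median -0.40). With GATA2 overexpression 14 of 17 fell and 2 rose (median -0.92). IRF5, which acts in macrophage inflammatory signalling, was 2.23-fold higher in CD90+ than in CD38+ control cells (84.0 ± 1.47 against 37.6 ± 0.777 CPM, adjusted p = 7.38e-13), and IKZF2, which encodes HELIOS, was 5.33-fold lower (7.10 ± 0.241 against 37.8 ± 1.55 CPM, adjusted p = 5.19e-15). TFEC, a relative of MITF found in macrophages, was 1.83-fold higher in CD90+ than in CD38+ control cells (adjusted p = 5.82e-07). IRF9, a subunit of the interferon-activated factor ISGF3, fell 5.49-fold with GATA2 overexpression (adjusted p = 2.14e-11), whereas IRF3 rose 1.44-fold (adjusted p = 6.79e-09).

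Next come subunits of the corepressor complexes used by GFI1, GFI1B and IKAROS. In CD90+ against CD38+ control cells 12 of 17 were lower, 2 higher and 3 not called (median -0.29), with HDAC1 2.36-fold lower and KDM1A 1.82-fold higher (adjusted p = 3.49e-17 and 4.67e-13). With GATA2 overexpression 12 rose and 5 fell (median 0.40), among them HDAC2, up 2.11-fold, and RBBP4, a histone chaperone gene, up 1.94-fold (adjusted p = 5.76e-16 and 3.69e-16). RCOR1, which links KDM1A to chromatin, fell 1.35-fold (adjusted p = 2.13e-06). KDM1A itself rose 1.72-fold, from 179 ± 4.63 CPM in CD90+ controls to 307 ± 10.1 CPM with GATA2 overexpression (adjusted p = 1.22e-12).

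**Figure D4:**
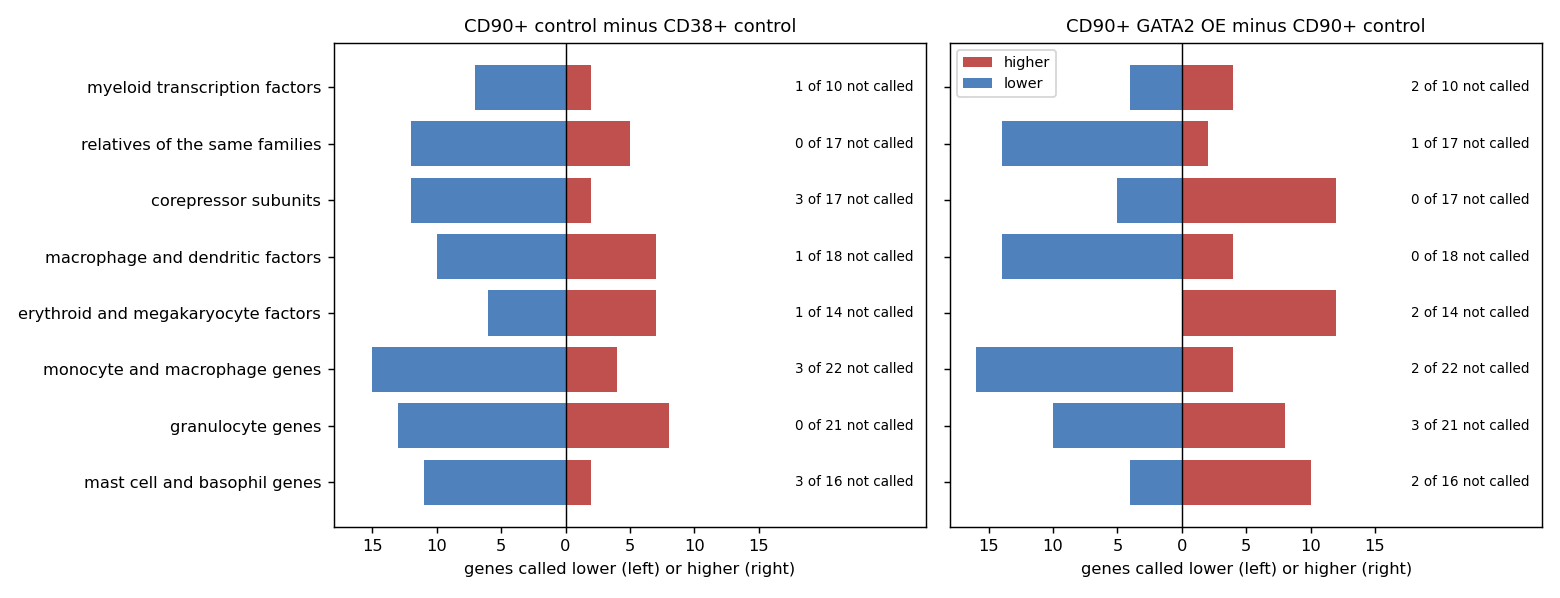
Numbers of tested genes called higher (right of 0) or lower (left of 0) in each list, for CD90+ against CD38+ control cells and for GATA2-overexpressing against control CD90+ cells, with the number not called at the side. With GATA2 overexpression 12 of 14 erythroid and megakaryocyte factors were higher and 16 of 22 monocyte and macrophage genes were lower, while the 10 factors split into 4 and 4.

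The genes whose profiles over the 9 libraries lay nearest to a factor were found among 10619 other tested genes with a mean of at least 5 CPM, by the root mean square difference of centred log2 CPM. For IRF8, whose own profile spanned 3.68 log2 units, they were AOAH, an enzyme that inactivates lipopolysaccharide (0.0949), DCSTAMP, a fusion protein gene of osteoclasts and dendritic cells (0.111), and PRDM1 (0.207). FKBP7, ST8SIA6 and YPEL1 were nearest to GFI1B (0.110 to 0.117, with a span of 2.90). CD82 was nearest to CEBPE (0.117), ZDBF2 to CEBPD (0.0730) and EFHD2 to CEBPB (0.0548). UXS1 was nearest to CEBPA (0.0422), ATP6V0A2 to GFI1 (0.0753) and ACSS2 to IKZF1 (0.0364). The 9 libraries form 3 groups, so likeness rests mainly on the 3 group levels.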

How the data were processed

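RNA-seq libraries were strand-specific and paired-end, per the labels' protocols, from 3 groups of 3 grouped by title. The deposited values were the authors' raw counts per gene symbol. The submitters' processing notes name HISAT2, featureCounts and hg38. The sources used here give no versions or annotation and do not say if reads were counted by strand. Without strand, reads of CEBPA, CEBPB and GFI1B and of genes overlapping them on the opposite strand cannot be told apart.

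Counts were fitted with edgeR 4.0.16 (R 4.3.3; quasi-likelihood test, TMM factors, filterByExpr with minimum count 10 and minimum total 15, group means over 9 libraries, no block), and p-values were Benjamini-Hochberg adjusted over 16232 genes. SE is the log2 fold change over the square root of F. Totals were 37500192 to 47261093 counts, and the biological coefficient of variation was 6.72%. Replicate libraries differed beyond counting noise (chi-square per degree of freedom 3.96 to 7.84). Alternatives were other size factors and filters, DESeq2 1.42.0, limma 3.58.1 voom, a 2-group fit, a replicate block and leaving out each library. The procedure was also run on simulated counts in which few genes changed, as many up as down. Most tested genes were called in the real data, so that run does not test the scaling. Positions and lengths are from GENCODE 29 on GRCh38.

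The 10 members and the lists were chosen with earlier results of these data known. Genes outside the 10 were named by rule, as up to 2 called genes per list, direction and main comparison with the largest change, among those with groups apart in every library and averaging 5 CPM or more over 9 libraries, besides GATA2, THY1, CD38, GATA1, overlapping genes and nearest profiles. Of the lists' markers, SPIC, TYR, MS4A1 and NANOG were not analysed here. Some genes that the rule names are not reported here.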

Additional observations from a re-analysis of the deposited data

How the results depend on the processing

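Of 30 differences (10 genes in 3 comparisons), 22 kept their direction and side of the threshold under all 15 alternatives each. The number of the 10 called stayed at 9 in CD90+ against CD38+ control cells under every alternative. These were not always the same genes, since CEBPD was called and MITF was not with library size only and with upper-quartile factors. The number ran from 7 to 9 with GATA2 overexpression against control CD90+ cells and from 7 to 9 against CD38+ control cells. In the analysis reported, 80.4%, 77.6% and 83.2% of all tested genes were called in these comparisons. Leaving out a library gave 9, 7 to 8 and 8 to 9. The replicate block gave 9, 8 and 9 called and changed no call. Deviations of same-numbered libraries from their group means correlated at -0.0290 to 0.0256, and those of differently numbered libraries at -0.0318 to 0.0316. Same numbers thus went with no shared signal over the tested genes. These values do not tell if same-numbered libraries share a culture.

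Directions turned as follows. For CEBPD in CD90+ against CD38+ control cells, log2 fold changes were 0.013 with RLE factors and 0.013 with DESeq2, 0.37 with library size only, 0.23 with upper-quartile factors, 0.0467 with the 1 CPM filter and 0.024 with only those groups in the fit. For MITF they were 0.13 with library size only in that comparison, and -0.14 with library size only and -0.0078 with upper-quartile factors with GATA2 overexpression against control CD90+ cells. For GFI1 in GATA2 overexpression against CD38+ control cells they were 0.0612 with library size only and 0.0483 with upper-quartile factors. For SPI1 with GATA2 overexpression against control CD90+ cells leaving out a library gave -0.086 (without GATA2 overexpression replicate 2) to 0.0197 (without replicate 1). These differences were small in the analysis reported, and apart from the scalings and fits with fewer genes or libraries the cause was not tested. Levels per kb of genes with several transcripts moved with the length used.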
